A study of Mus musculus with 8 samples.

Results

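The serpins are a superfamily of protease inhibitors, and 9 serpin genes were followed here in activated mouse CD8 T cells: Serpina3f, Serpina3g, Serpinb1a, Serpinb6a, Serpinb6b, Serpinb9, Serpinb9b, Serpine2 and Serpinf1. They were taken by symbol from a table of 41730 genes that held 58 other serpin genes. The 9 were chosen by inspection of earlier results of the same comparison, RGX-104 against control, so their own differences between the groups are given as a description and carry no test. The sequenced cells were OT-I CD8+ T cells, whose transgenic T cell receptor recognizes an ovalbumin peptide. They had been cultured with bone marrow-derived dendritic cells (BMDCs) pulsed with that peptide, SIINFEKL, and were purified afterwards by FACS. The BMDCs lacked the liver X receptors (LXR-/-) in both groups, and the T cells of both groups carried the OT-I genotype. In 4 libraries the culture contained 2 µM RGX-104, a synthetic LXR agonist, and in the 4 control libraries it contained DMSO. The labels give no age or sex of the animals and do not say whether libraries of a group came from separate cultures, so the spread between libraries, and the p-values that rest on it, may be technical.

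An inhibitory serpin presents an exposed loop that a protease cuts. The protease is then trapped in a covalent complex with the serpin, and both proteins are lost. Clade B serpins stay inside the cell and lack a classical signal peptide, whereas most serpins of clades A, E and F are secreted. Killer T cells store granzymes, which are serine proteases, in granules together with perforin, and their cytosolic serpins can inactivate granzyme that leaks from those granules. In mice, Serpinb9 (Spi6) inhibits granzyme B, Serpinb6b inhibits granzyme A, and Serpinb9b inhibits granzyme M. Serpina3g (Spi2A), unusual for clade A in acting inside the cell, inhibits lysosomal cathepsins that reach the cytosol and is known for protecting CD8 T cells on their way to memory.

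Promoter windows are shown first for Serpina3f and Serpina3g, neighbours on chromosome 12, since these genes differed most between the groups. Each window runs from 250 bases before to 50 bases after an annotated start, is taken from RefSeq on GRCm38.p6 and is printed 5′ to 3′ on the strand of the gene. Of the 9 genes, 8 had at least 1 window and there were 10 windows in all; Serpinb1a had none. Capitals mark matches to TTCNNNGAA, the letters of an interferon gamma activated site, or to GAAA, any 2 bases and GAAA, a core of interferon response elements, each searched on both strands. Serpinb9 is included as a gene with only the interferon response core. Serpinb6a is included as a gene whose window shown holds both motifs and whose levels overlapped between the groups. The other annotated window of Serpinb6a held neither motif. Windows of Serpinb6b, Serpinb9b, Serpine2 and Serpinf1 held neither motif as well, although levels of Serpinb6b and Serpine2 were also lower with RGX-104.
Serpina3f, chr12:104214294-104214593, plus strand: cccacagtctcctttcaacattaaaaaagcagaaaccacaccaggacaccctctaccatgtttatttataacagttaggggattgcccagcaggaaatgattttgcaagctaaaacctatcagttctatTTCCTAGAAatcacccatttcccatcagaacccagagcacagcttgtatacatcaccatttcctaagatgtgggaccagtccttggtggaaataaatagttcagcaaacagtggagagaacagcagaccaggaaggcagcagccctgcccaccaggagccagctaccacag
Serpina3g, chr12:104235897-104236196, plus strand: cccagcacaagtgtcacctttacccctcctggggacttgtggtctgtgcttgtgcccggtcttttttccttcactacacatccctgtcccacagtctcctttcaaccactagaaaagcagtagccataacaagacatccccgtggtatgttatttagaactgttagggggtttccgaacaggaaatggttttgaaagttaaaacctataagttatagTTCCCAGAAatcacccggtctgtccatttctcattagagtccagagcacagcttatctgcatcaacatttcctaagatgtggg
Serpinb9, chr13:33004291-33004590, plus strand: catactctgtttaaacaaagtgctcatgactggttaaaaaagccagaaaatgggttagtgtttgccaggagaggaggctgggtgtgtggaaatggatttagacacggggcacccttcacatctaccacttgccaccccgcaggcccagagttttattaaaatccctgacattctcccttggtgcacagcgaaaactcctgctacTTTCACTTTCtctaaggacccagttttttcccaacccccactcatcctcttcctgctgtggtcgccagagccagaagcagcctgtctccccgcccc
Serpinb6a, chr13:34002745-34003044, minus strand: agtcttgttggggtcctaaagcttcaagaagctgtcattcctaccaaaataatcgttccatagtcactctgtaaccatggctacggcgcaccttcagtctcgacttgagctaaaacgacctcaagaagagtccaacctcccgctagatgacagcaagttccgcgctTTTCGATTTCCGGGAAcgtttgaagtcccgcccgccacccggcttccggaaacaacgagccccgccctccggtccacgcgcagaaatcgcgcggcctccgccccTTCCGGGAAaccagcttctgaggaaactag

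The TTCNNNGAA match began 121 bases before the start in Serpina3f and 33 bases before it in Serpina3g. The windows of these genes aligned over 202 bases, of which 83.7% were identical, and the matches of both genes fell on the same aligned position. The same match was also inside the second annotated window of Serpina3f, which overlaps the first. In Serpinb6a the TTCNNNGAA match 77 bases before the start overlaps the interferon response core, read there on the opposite strand, and a second TTCNNNGAA match lies after the start. Of all 32851 windows in the RefSeq promoter table, 8.30% held TTCNNNGAA and 3.44% held the interferon response core. A direct repeat of AGGTCA with 4 bases between the copies, of the kind LXR binds, was found in 0.0152% of windows and in none of the 10 windows of these serpin genes. These letter matches describe the windows only.

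Library totals ranged from 30642316 to 35244624 counts with RGX-104 and from 33942140 to 37714355 counts in controls. Abca1, a cholesterol exporter and standard LXR target, was at 125 ± 6.21 CPM (counts scaled to library size) with RGX-104 and at 1.72 ± 0.295 CPM in controls (SD, n = 4 each). No pair of libraries of a group agreed within counting noise; the closest, RGX-104 replicates 2 and 3, had a chi-square per degree of freedom of 1.36. Of 8 myeloid markers 0 reached the level needed for testing, and their summed level was 0.773 to 1.07 CPM with RGX-104 and 0.620 to 0.828 CPM in controls. The 6 mast cell and basophil markers summed to at most 0.126 CPM with RGX-104 and 0.201 CPM in controls. Of 7 stromal markers, Col3a1, Dcn and Cdh5 were at 0 in every library, and the list summed to 12.3 to 15.6 CPM with RGX-104 and 14.2 to 15.7 CPM in controls, nearly all of it Pecam1. Of 12 dendritic cell markers 8 were tested, with a median log2 change of 0.27. Ccl22 was higher, at 4.83 ± 0.324 CPM with RGX-104 and 2.05 ± 0.248 CPM in controls, and Ccr7 was called lower by a log2 change of -0.10 ± 0.03 (SE). Ccr7 lost its call without RGX-104 replicate 1 or control replicate 3 (edgeR adjusted p = 0.0537 and 0.0517). Zbtb46 and Fscn1, at log2 changes of 0.37 ± 0.12 and 0.28 ± 0.09 (SE), did not pass the test (edgeR adjusted p = 0.0552 and 0.0669), nor did Flt3, Itgax, Batf3 and Cst3, at 0.37, 0.25, 0.04 and 0.02. The list summed to 731 to 748 CPM with RGX-104 and 751 to 801 CPM in controls, most of it Ccr7, which T cells also express. Of the 4 untested dendritic markers, Xcr1 had 7 counts in each RGX-104 library and 4 to 7 in controls, and Clec9a, Cd209a and Siglech had at most 2 counts in any library. The part of such transcripts in the serpin values was not tested. All 8 T cell markers were tested. Among them Cd3e, Cd8a, Cd8b1 and Cd247 were lower with RGX-104, Cd8a by a log2 change of -0.12 ± 0.02 (SE), and Lck was higher. Cd3d, Cd3g and Thy1 did not pass the test, at log2 changes of -0.01, -0.02 and 0.09 (edgeR adjusted p = 0.879, 0.728 and 0.0658). In bulk libraries a smaller share of cells and less RNA per cell cannot be told apart.

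Of the 9 serpin genes, 7 had enough counts to be tested with all 13290 genes that passed the filter. By edgeR at adjusted p under 0.05, 5 of these 7 were lower with RGX-104 and 0 were higher, where 8.95% of all tested genes were called, 4.13% lower and 4.82% higher. Because the genes were selected on this comparison, that count is not read as a result. The groups did not overlap in the same 5 genes, and they did not overlap in 14.5% of all tested genes. The median log2 change of the 7 was -0.19, beside 0.00072 over all tested genes. The difference was large in Serpina3f and Serpina3g and small in the more abundant Serpinb6b, Serpinb9 and Serpine2.

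**Figure D1:**
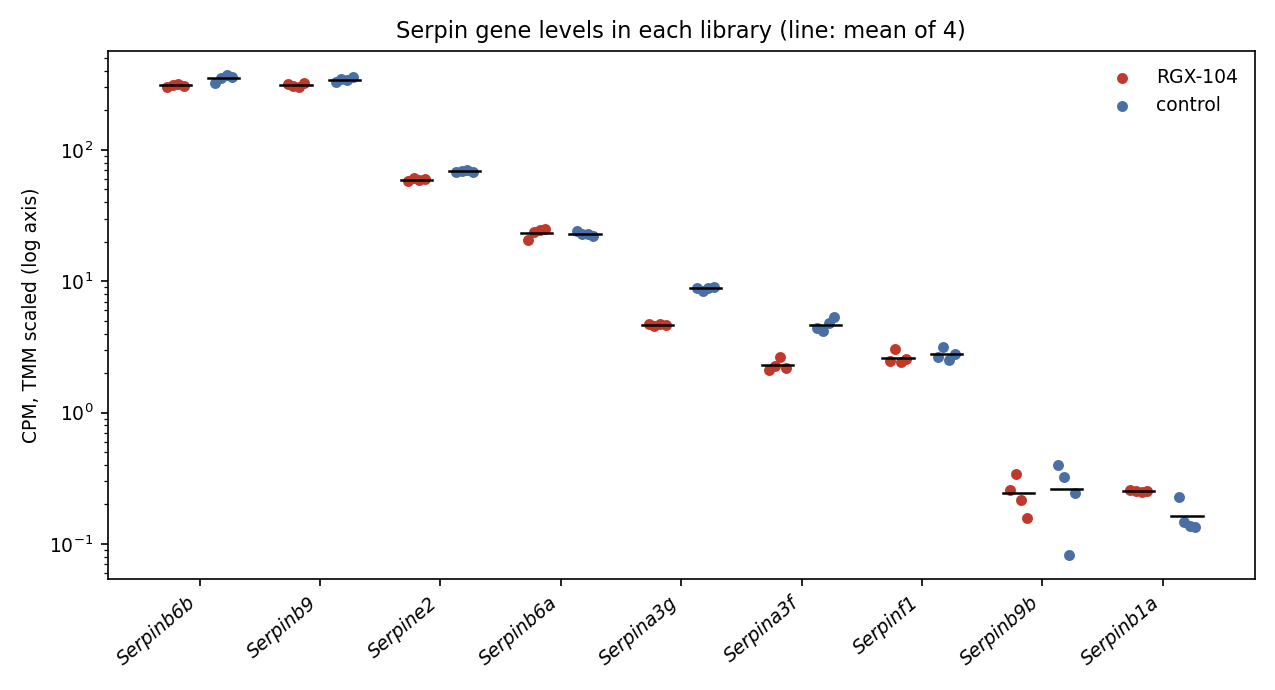
Level of each of the 9 serpin genes in CPM with TMM-scaled library sizes, on a log axis, in 4 RGX-104 libraries (red, left) and 4 control libraries (blue, right); points are libraries and lines are means. Serpina3g and Serpina3f show the widest gap between the groups, and Serpinb9b and Serpinb1a lie below 0.5 CPM in every library.

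Serpina3g, the cathepsin inhibitor, measured 4.69, 4.58, 4.70 and 4.62 CPM in RGX-104 replicates 1 to 4, and 8.92, 8.43, 8.83 and 9.11 CPM in control replicates 1 to 4. All RGX-104 libraries lay close together and below every control library. The log2 change was -0.92 ± 0.08 (SE), a level 47.3% lower with RGX-104, on 606 counts in RGX-104 libraries and 1255 counts in control libraries. Serpina3f, a neighbouring clade A3 gene, measured 2.10, 2.26, 2.63 and 2.17 CPM in RGX-104 replicates 1 to 4, and 4.42, 4.16, 4.77 and 5.36 CPM in control replicates 1 to 4. Again the groups did not overlap, and control replicate 4 was the highest library. The log2 change of Serpina3f was -1.03 ± 0.12 (SE), a level 51.0% lower with RGX-104. Ordered from the most negative log2 change, Serpina3f was number 14 and Serpina3g number 19 of the 13290 tested genes. These ranks are a description only, since both genes were chosen on this comparison.

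Reads of these close relatives can be shared between them. Their coding sequences aligned over 744 bases, the whole coding part annotated for Serpina3g, with 87.4% identity. Of all 50-base stretches of their annotated transcripts, 10.6% of those of Serpina3f and 15.5% of those of Serpina3g also occurred in a transcript of another gene, with Serpina3g and Serpina3h as the genes that shared most. Serpina3h was at 0 counts in every library. The sources used here give neither the read length nor the handling of reads that map to several places, so the 50 bases are only an illustration. The ratio of Serpina3f to Serpina3g, each in RPKM (CPM divided by exon length in kb), was 0.388 ± 0.0379 with RGX-104 and 0.417 ± 0.0356 in controls (SD, n = 4 each), and the libraries of the groups overlapped. Their cluster held 21 serpin genes within 500 kb, of which 18 were at 0 counts in every library and the third with any count had at most 1 in a library.

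Serpinb9, the granzyme B inhibitor, measured 316, 305, 303 and 325 CPM in RGX-104 replicates 1 to 4, and 327, 344, 339 and 356 CPM in control replicates 1 to 4. The groups did not overlap, but RGX-104 replicate 4 and control replicate 1 were less than 3 CPM apart. The log2 change was -0.13 ± 0.03 (SE), a level 8.57% lower with RGX-104. Serpinb6b, the granzyme A inhibitor of mice, measured 303, 314, 316 and 305 CPM in RGX-104 replicates 1 to 4, and 322, 354, 373 and 358 CPM in control replicates 1 to 4. Control replicate 1 was again the control nearest to the RGX-104 libraries. Its log2 change was -0.18 ± 0.04 (SE), a level 12.0% lower. For scale, log2 changes of the 8 T cell markers ran from -0.18 ± 0.03 in Cd247 to 0.10 ± 0.03 in Lck (SE). Their median was -0.069, and Cd8a was at -0.12 ± 0.02.

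Serpinb6a, an intracellular inhibitor of cathepsin G and related proteases, measured 20.5, 23.6, 24.4 and 24.8 CPM in RGX-104 replicates 1 to 4, and 23.9, 22.7, 22.9 and 22.1 CPM in control replicates 1 to 4. The groups overlapped, with RGX-104 replicate 1 the lowest of all 8 libraries. The log2 change was 0.03 ± 0.05 (SE). Coding sequences of Serpinb6a and Serpinb6b were 86.3% identical over 1128 aligned bases, yet 0.751% and 2.92% of their 50-base stretches occurred in transcripts of another gene. Serpinb6a overlaps Nqo2 and Ripk1 in the RefSeq annotation, and Serpinb9 overlaps the noncoding gene Gm36181, which had at most 319 counts. The strand setting of the counting is not given, so such overlapping reads could not be assigned with certainty.

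Serpinb9b and Serpinb1a were near the limit of counting and did not pass the filter. Serpinb9b, the granzyme M inhibitor, had 8, 12, 7 and 5 counts in RGX-104 replicates 1 to 4, and 14, 11, 3 and 9 counts in control replicates 1 to 4. These groups overlapped over most of their range. Serpinb1a, an inhibitor of neutrophil elastase and related proteases, had 8, 9, 8 and 8 counts in RGX-104 libraries, and 8, 5, 5 and 5 counts in control replicates 1 to 4. The CPM values of Serpinb1a did not overlap, but a count of 8 occurred in both groups and no difference could be assessed at this depth. Serpinb9b shares 86.4% of 1119 aligned coding bases with Serpinb9, and 0.478% of its 50-base stretches with other genes.

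Serpine2, or protease nexin 1, is a secreted inhibitor of thrombin and of plasminogen activators. It measured 57.5, 60.8, 58.7 and 60.5 CPM in RGX-104 replicates 1 to 4, and 68.0, 68.6, 70.1 and 67.7 CPM in control replicates 1 to 4. The groups were well apart and each was narrow. Its log2 change was -0.21 ± 0.03 (SE), a level 13.4% lower with RGX-104. Serpinf1, pigment epithelium-derived factor, is a secreted serpin that does not inhibit proteases. It measured 2.46, 3.03, 2.44 and 2.58 CPM in RGX-104 replicates 1 to 4, and 2.67, 3.18, 2.51 and 2.78 CPM in control replicates 1 to 4. These groups overlapped, and the log2 change was -0.08 ± 0.12 (SE).

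Levels of the 9 genes were ordered per length, as RPKM over the union of GENCODE exons. Serpinb6b came first with 141 ± 3.04 RPKM in RGX-104 libraries and 160 ± 9.86 RPKM in controls, followed by Serpinb9 with 89.4 ± 2.83 RPKM with RGX-104 and 97.8 ± 3.45 RPKM in controls. Serpine2 stood at 26.9 ± 0.702 RPKM with RGX-104 and 31.0 ± 0.483 RPKM in controls, and Serpinb6a at 11.7 ± 0.973 RPKM with RGX-104 and 11.4 ± 0.382 RPKM in controls (SD, n = 4 each). No libraries of neighbouring genes in this order overlapped within a group. Serpina3g followed with 2.58 ± 0.0321 RPKM with RGX-104 and 4.89 ± 0.158 RPKM in controls. Below it the order depended on the group. Serpina3f was at 1.00 ± 0.103 RPKM with RGX-104, below Serpinf1 at 1.36 ± 0.141 RPKM, whereas in controls Serpina3f was at 2.04 ± 0.228 RPKM, above Serpinf1 at 1.44 ± 0.149 RPKM. The libraries of Serpina3f and Serpinf1 did not overlap in either group. With the longest transcript as the length instead, the order was the same, with Serpina3f and Serpinf1 at 1.02 and 1.43 RPKM with RGX-104 and at 2.08 and 1.52 RPKM in controls. Serpinb1a and Serpinb9b, the lowest, overlapped in controls and not in RGX-104 libraries, at counts too low to rank them.

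**Figure D2:**
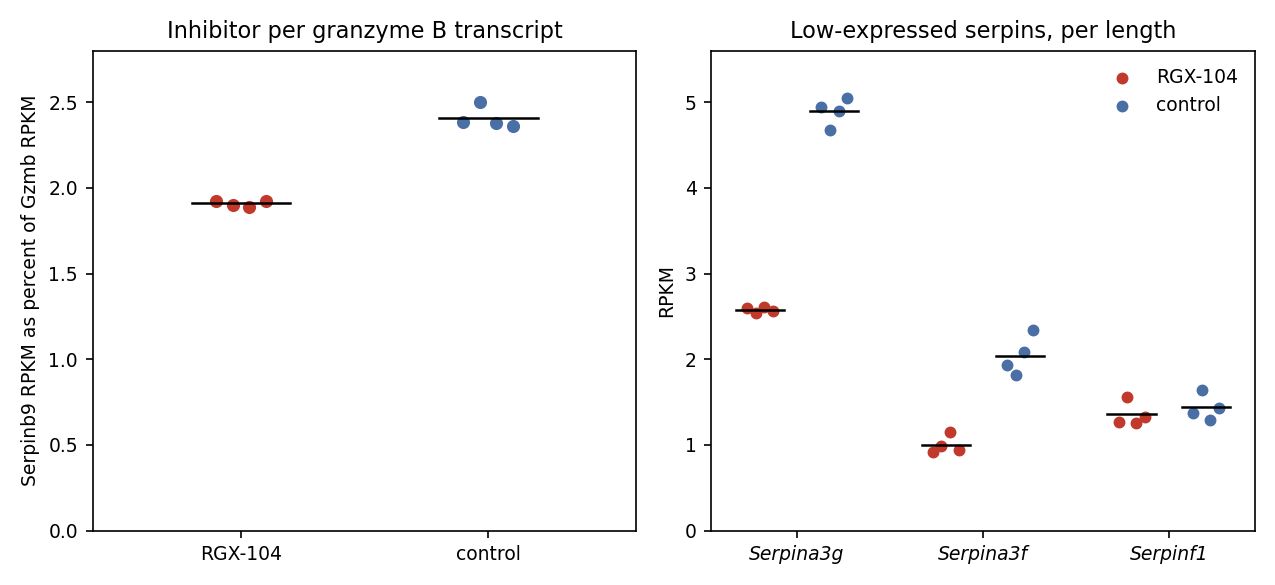
Left, RPKM of Serpinb9 as a percent of RPKM of Gzmb in each library, 1.89 to 1.92% with RGX-104 (red) and 2.36 to 2.50% in controls (blue). Right, RPKM of Serpina3g, Serpina3f and Serpinf1 in each library; lines are means of 4 libraries, and Serpina3f lies below Serpinf1 with RGX-104 and above it in controls.

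Serpin genes outside the chosen 9 were mostly silent. Of the 58, 43 were at 0 counts in every library and 54 had at most 10 counts in any library. Of those that passed the filter, 3 are described here, and edgeR, DESeq2 and limma-voom called 0 of these 3, with 0 at an unadjusted p under 0.05 in edgeR. Over all tested genes edgeR called 8.95%. The 3 are not all that passed the filter, so this 0 says nothing about serpin genes not reported here. Serpinc1, which encodes antithrombin, was at 7.59 ± 0.352 CPM with RGX-104 and 7.53 ± 0.656 CPM in controls (SD, n = 4 each; edgeR adjusted p = 0.939). Serpini1, which encodes neuroserpin, was at 4.38 ± 0.318 CPM with RGX-104 and 4.49 ± 0.349 CPM in controls (edgeR adjusted p = 0.872). Serpinb1b, a relative of Serpinb1a, was at 0.413 ± 0.114 CPM with RGX-104 and 0.499 ± 0.129 CPM in controls (edgeR adjusted p = 0.623).

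**Figure D3:**
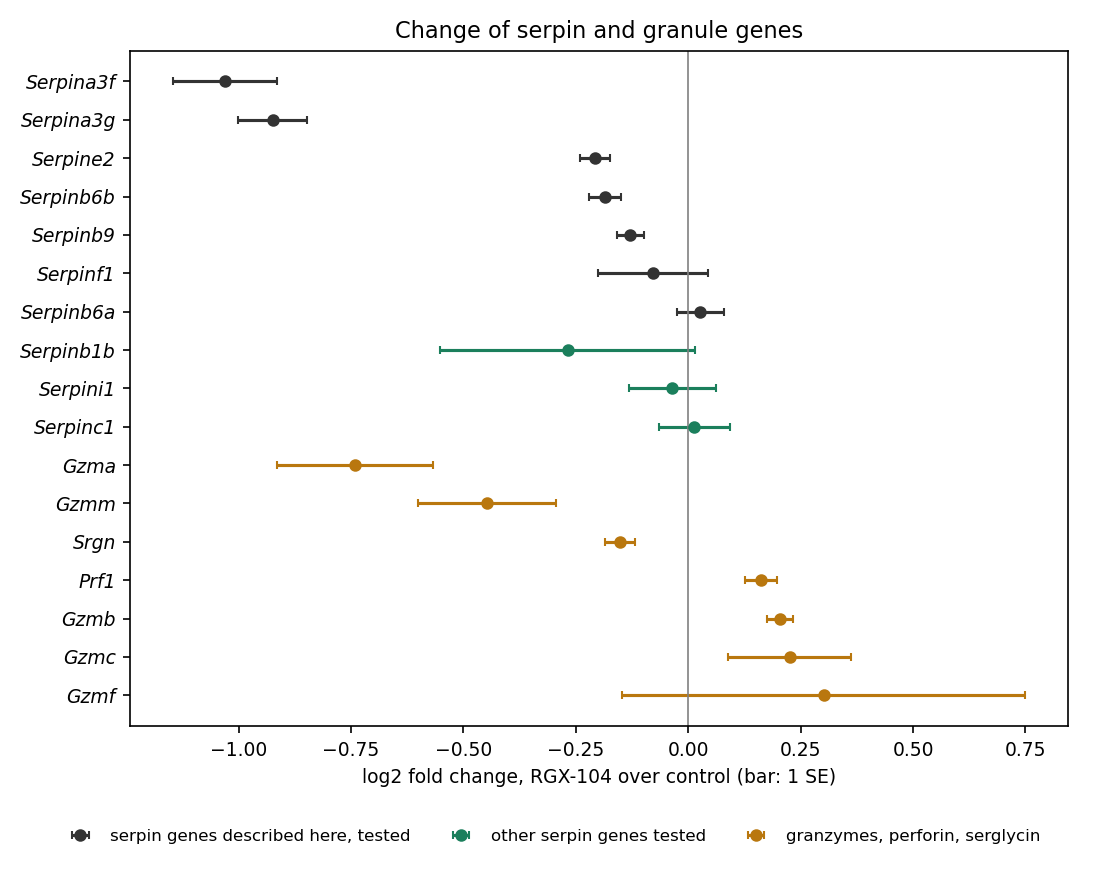
Log2 fold change, RGX-104 over control, with bars of 1 SE, for the 7 tested serpin genes described here (dark), 3 other tested serpin genes (green) and the 7 tested genes of the granzyme and perforin list (ochre). Serpina3f and Serpina3g lie near -1, whereas Gzmb and Prf1 lie above 0.

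Granzymes, other proteases and partners were taken from lists drawn up from textbook knowledge. These lists, and those of other inhibitors and of regulators below, were drawn up with earlier results of these data known. Their counts and p-values are therefore not free of that knowledge. The lists were not limited to proteases that the serpins followed here act on. Of 7 tested genes of granzymes, perforin and the granule proteoglycan serglycin, 2 were higher and 2 lower with RGX-104. These were 57.1% of the 7, where 8.95% of all tested genes were called, and the median log2 change was 0.16. Gzmb, the granzyme that Serpinb9 inhibits, measured 6765, 6595, 6595 and 6940 CPM in RGX-104 replicates 1 to 4, and 5645, 5655, 5849 and 6202 CPM in control replicates 1 to 4. It rose by 15.2% with groups that did not overlap (log2 change 0.20 ± 0.03, SE; edgeR adjusted p = 1.85e-05). Prf1, perforin, rose by 11.9% (edgeR adjusted p = 0.00307), and Srgn, serglycin, fell by 9.99% (edgeR adjusted p = 0.00456). Per length, Serpinb9 amounted to 1.91 ± 0.0150% of Gzmb with RGX-104 and 2.41 ± 0.0650% in controls (SD, n = 4 each), and the libraries did not overlap. Since Serpinb9 was chosen on this comparison, the ratio is a description too, and transcript ratios do not measure protein.

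Gzma, the granzyme that Serpinb6b inhibits, measured 2.69, 4.84, 4.61 and 4.71 CPM in RGX-104 replicates 1 to 4, and 5.62, 7.81, 8.03 and 6.82 CPM in control replicates 1 to 4. It was called lower, with a log2 change of -0.74 ± 0.17 (SE; edgeR adjusted p = 0.0250), but the call was lost without RGX-104 replicate 3 or 4 or control replicate 2, 3 or 4, with adjusted p of 0.0505 to 0.0687, and with 1 surrogate variable. The range of adjusted p over all 16 alternatives was 4.54e-12 to 0.0735, and the log2 change stayed between -0.83 and -0.58. RGX-104 replicate 1 stood below the other 3 libraries of its group. Per length, Serpinb6b exceeded Gzma by a factor of 51.7, 29.8, 31.4 and 29.6 in RGX-104 replicates 1 to 4, and of 26.3, 20.8, 21.3 and 24.1 in control replicates 1 to 4. Gzmm, the target of Serpinb9b, was at 1.43 ± 0.0581 CPM with RGX-104 and 1.96 ± 0.355 CPM in controls and did not pass the test (edgeR adjusted p = 0.0679). It passed with 1 surrogate variable (adjusted p = 0.0141) and without control replicate 4 (adjusted p = 0.0393). Gzmc was at 2.19 ± 0.172 CPM with RGX-104 and 1.88 ± 0.247 CPM in controls, and Gzmf at 0.386 ± 0.143 CPM with RGX-104 and 0.312 ± 0.238 CPM in controls (edgeR adjusted p = 0.350 and 0.748).

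Of 17 tested genes on the list of cathepsins and other proteases, 5 were higher and 1 lower, with a median log2 change of 0.066. The called genes were 35.3% of the 17, beside 8.95% of all tested genes. Which of these proteases the serpins followed here inhibit was not tested. Lgmn, the lysosomal cysteine protease legumain, rose by 0.59 ± 0.13 on the log2 scale to 3.49 ± 0.509 CPM, against 2.33 ± 0.287 CPM in controls. Ctss, cathepsin S, rose to 34.7 ± 1.14 CPM with RGX-104, against 27.1 ± 1.42 CPM in controls, and Ctsd, the aspartic protease cathepsin D, rose to 173 ± 4.24 CPM, against 143 ± 2.65 CPM (edgeR adjusted p = 0.00299, 1.70e-06 and 1.82e-07 for Lgmn, Ctss and Ctsd). Furin, a proprotein convertase, was called higher, at 193 ± 13.2 CPM with RGX-104 and 174 ± 6.83 CPM in controls (edgeR adjusted p = 0.0399), but lost its call without RGX-104 replicate 1 or 4 or control replicate 2, 3 or 4 (adjusted p = 0.0846 to 0.109), and also with limma-voom and with 1 surrogate variable. Its groups overlapped. The protease that fell was Ctsb, cathepsin B, at 175 ± 3.97 CPM with RGX-104 and 192 ± 2.42 CPM in controls (edgeR adjusted p = 0.00144). Ctsb was named after its values were seen.

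Among 18 tested protease inhibitors of other families, 1 was higher and 1 lower, with a median log2 change of 0.015. That is 11.1% of the 18, near the 8.95% called over all tested genes. Birc2, an inhibitor of apoptosis protein, was at 72.0 ± 1.24 CPM with RGX-104 and 65.4 ± 3.79 CPM in controls (edgeR adjusted p = 0.0172), and Cst7, cystatin F, at 52.5 ± 3.43 CPM with RGX-104 and 58.4 ± 2.76 CPM in controls (edgeR adjusted p = 0.0290). Birc2 lost its call without RGX-104 replicate 1 or 2 or control replicate 4 (adjusted p = 0.0532 to 0.0679), and Cst7 without RGX-104 replicate 1 or 4 or control replicate 2 or 3 (adjusted p = 0.0773 to 0.113). Both lost it with 1 surrogate variable, and Cst7 also with upper quartile scaling and library totals alone. Of 8 tested receptors and partners of secreted serpins, 2 passed the test upward and 1 downward, and the median log2 change was 0.0044. These calls were 37.5% of the 8, beside 8.95% of all tested genes. Lrp8, a receptor of the lipoprotein receptor family, was at 90.3 ± 3.51 CPM with RGX-104 and 80.3 ± 3.95 CPM in controls (edgeR adjusted p = 0.00264). Lrp1, the endocytic receptor that clears serpin complexes, was at 2.99 ± 0.347 CPM with RGX-104 and 2.17 ± 0.180 CPM in controls (edgeR adjusted p = 0.0181). Pnpla2, a lipase that binds pigment epithelium-derived factor, was at 76.0 ± 2.54 CPM with RGX-104 and 82.9 ± 2.07 CPM in controls (edgeR adjusted p = 0.0152). The calls of Lrp1 and Pnpla2 were both lost without RGX-104 replicate 3 or 4, and that of Lrp1 also without control replicate 3 (adjusted p = 0.0563 to 0.0741).

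Of 14 regulators that include NF-kB subunits and factors of interferon gamma signalling, 1 was higher and 5 were lower. Called genes made up 42.9% of the 14, beside 8.95% of all tested genes, and the median log2 change was -0.052. Irf1, a transcription factor induced by interferon gamma, was at 200 ± 3.18 CPM with RGX-104 and 254 ± 7.75 CPM in controls, and Irf8, a related factor, was at 557 ± 11.1 CPM with RGX-104 and 683 ± 16.8 CPM in controls. Their edgeR adjusted p were 1.81e-09 and 1.02e-08, and all 16 alternatives kept these calls. Cebpb was at 5.73 ± 0.150 CPM with RGX-104 and 7.06 ± 0.800 CPM in controls (edgeR adjusted p = 0.0290) and lost its call without any single RGX-104 library or without control replicate 2, 3 or 4 (adjusted p = 0.0533 to 0.125), and with 1 surrogate variable.

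Over the 8 libraries, the genes whose log2 CPM tracked Serpina3g most closely were Hic1, Dbnl, Gbp2, Asns and Irf1, with Pearson r of 0.998, 0.992, 0.991, 0.990 and 0.990. For Serpina3f they were Rtn4rl1, Susd3, Becn1, Asns and Adprh, with r of 0.989, 0.989, 0.987, 0.986 and 0.986. For Serpine2 the highest r was 0.995 with Plac8, for Serpinb6b 0.990 with Egln1, and for Serpinb9 0.980 with Gstcd. For Serpinb6a it was 0.967 with Camsap1, and for Serpinf1 0.975 with Scaper. These r over 8 libraries include the difference between the groups, so genes that differ between them tend to a high r. After the mean of each group was taken away, r between pairs of the 7 tested serpin genes ran from -0.67, for Serpina3g and Serpinf1, to 0.68, for Serpina3f and Serpina3g, with a median of 0.041 over 21 pairs. Within groups the serpin genes deviated in either direction, and 8 libraries allow no more than this description. The genes closest in these deviations to Serpina3f were Rab8a, Atp6v0d1 and Ddx42 (r = 0.992, 0.966 and 0.965). Those closest to Serpina3g were Gtf3c5, Eefsec and Get4 (r = 0.983, 0.976 and 0.975), and the 2 lists shared no gene. Each r is among the highest over all tested genes, and with 8 libraries such values can arise by chance.

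Position offered a measure that the choice of genes did not use. The 9 genes lie at 5 places in the genome (GRCm38): Serpine2 on chromosome 1 from 79794317 to 79858665, Serpinf1 on chromosome 11 from 75410029 to 75422623, Serpina3f and Serpina3g on chromosome 12 from 104214544 to 104241939, the group from Serpinb1a to Serpinb9b on chromosome 13 from 32842092 to 33040588, and Serpinb6a on chromosome 13 from 33917918 to 34002794. Of the 76 other genes whose start coordinates lay within 500 kb, 38 were tested, of which 1 was higher and 4 were lower with RGX-104. These were 13.2% of the 38, where 8.95% of all tested genes were called. All 5 lay around Serpinf1, whose own groups overlapped and which had 22 of the 38 tested neighbours. The strongest was Hic1, a transcriptional repressor 248.7 kb away, at 22.3 ± 0.680 CPM with RGX-104 and 69.2 ± 1.46 CPM in controls (edgeR adjusted p = 1.94e-21). Smg6, which overlaps Hic1 in the annotation, changed by -0.30 ± 0.04, Rtn4rl1 by -0.55 ± 0.10 and Myo1c by -0.15 ± 0.03 (log2, SE), and Mir22hg by 0.31 ± 0.10. Myo1c was named after its values were seen. Mir22hg lost its call without any single library other than RGX-104 replicates 2 and 3 (adjusted p = 0.0502 to 0.184), and with DESeq2, limma-voom and 1 surrogate variable.

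Around the Serpina3 pair the only tested gene that was not a serpin was Dicer1, with a log2 change of -0.03 ± 0.03 (SE; edgeR adjusted p = 0.607). Around the Serpinb9 group, Wrnip1 and Gm36181 had log2 changes of -0.05 ± 0.03 and -0.08 ± 0.10 (edgeR adjusted p = 0.416 and 0.707). The 8 tested neighbours of Serpinb6a ranged from -0.20 to 0.28 and the 5 of Serpine2 from -0.20 to 0.035. By edgeR, DESeq2 and limma-voom alike 0 of these 13 were called, and in edgeR 1 of the 8 and 1 of the 5 had an unadjusted p under 0.05. DESeq2 and limma-voom each called 4 of all 38 neighbours, all lower and all around Serpinf1.

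**Figure D4:**
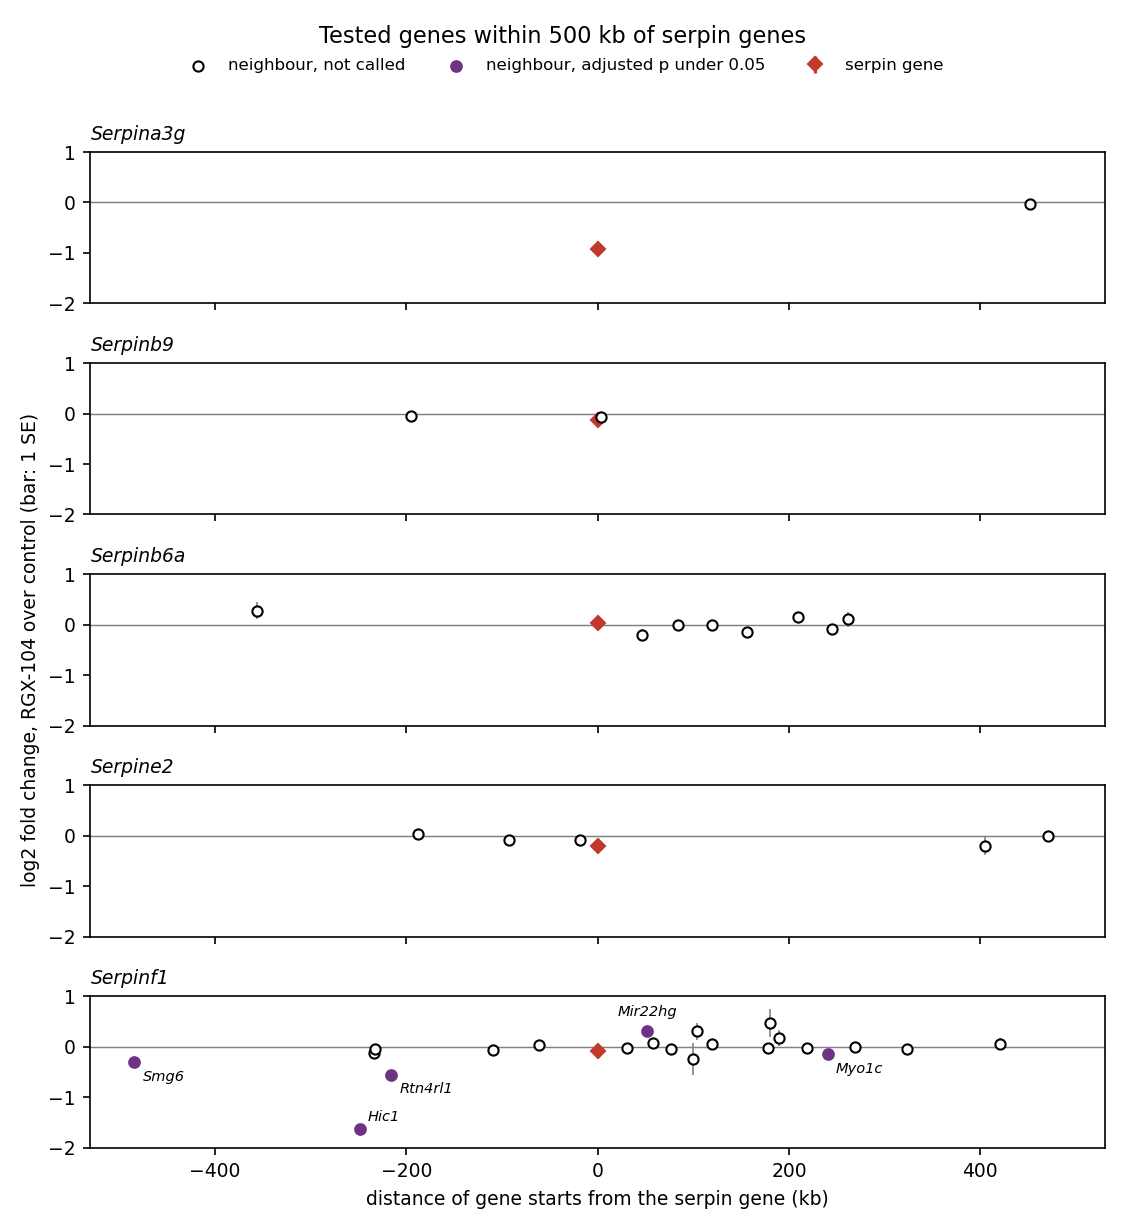
Log2 fold change, RGX-104 over control, with bars of 1 SE, for tested genes within 500 kb of Serpina3g, Serpinb9, Serpinb6a, Serpine2 and Serpinf1 (red diamonds at 0), against the distance between start coordinates in kb. Filled circles passed adjusted p under 0.05, and all 5 of them lie around Serpinf1, with Hic1 lowest at -1.63.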

How the data were processed

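The deposited values were raw read counts, 1 row for each gene and 1 column for each library. The submitters' processing notes name cutadapt 2.10, STAR 2.7.5, R 4.1.0 and DESeq2 1.4 with the build GRCm38. How reads were counted, with which annotation and strand setting, is not given in the sources used here. Control columns matched numbered control samples. RGX-104 columns showed only their group and are numbered by column. Every sample column was used (0 left out). Genes passed filterByExpr (minimum count 10, minimum total 15). Testing used edgeR 4.0.16 (R 4.3.3) with robust quasi-likelihood fits, TMM scaling and treatment as the only term, and p-values were Benjamini-Hochberg adjusted over 13290 genes. SE came from the F statistic. CPM used TMM-scaled library sizes, and correlations used log2(CPM + 0.25).

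The 9 genes and all lists were chosen with earlier results of these data known. Named were the 9 genes, the tested granzyme and serpin genes, the called genes with the largest changes from each list (at most 4), and the genes most alike; some genes that this rule names are not reported here. Alternatives were DESeq2 1.42.0, limma-voom (limma 3.58.1), other scalings and filters, 1 surrogate variable (sva 3.50.0), leaving out each library and, added after seeing the data, a block for the column number. Scripts were checked on simulated counts. Coordinates and promoters were from RefSeq (GRCm38.p6) and exon lengths and transcripts from GENCODE, matched by symbol.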

Additional observations from a re-analysis of the deposited data

Results flagged for a closer look

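Of 86 groups of 4 libraries checked, 3 held a library far from the other 3 of its group by Dixon's criterion, where chance gives about 1 in 20, or 4.3. Gzma measured 2.69 CPM in RGX-104 replicate 1 and at 4.61 to 4.84 CPM in the other RGX-104 libraries. Prf1 was at 52.1 CPM in control replicate 3 and at 49.4 to 49.8 CPM in the other controls. Serpinb1a was at 0.229 CPM in control replicate 1 and at 0.135 to 0.147 CPM in the other controls, which is 8 counts against 5 in each.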

How the results depend on the processing

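The sample titles give the groups no shared numbers, but the table's columns are numbered 1 to 4 in each group. Same-numbered libraries had deviations from their group means with r of 0.161, 0.0976, 0.0522 and 0.192, over 0.1 in 2 of 4 pairs, so the numbers were not taken as pairs, although each of the 8 libraries was closest to its own number, a hint from the data and not the design. With that number as a replicate block, a fit added after seeing the data, edgeR called 2015 genes in place of 1189, 1109 higher and 906 lower. Among the named genes 1 came to pass the threshold, Gzmm, at -0.45 with an adjusted p of 0.0318, and none lost its call or changed sign. Over the other 16 alternatives the log2 change ranged from -1.10 to -0.93 in Serpina3f, -0.94 to -0.91 in Serpina3g, -0.23 to -0.15 in Serpinb6b, -0.15 to -0.099 in Serpinb9 and -0.22 to -0.19 in Serpine2, each without a change of sign. Each alternative tested 7 to 9 of the 9 genes and found 5 lower at the threshold, where the main fit called 4.13% of all tested genes lower. Because the genes were selected on this comparison, that count is not read as a result. Serpinb6a ran from -0.0015, without RGX-104 replicate 4, to 0.082, and Serpinf1 from -0.16 to -0.0093. The count of all called genes, 1189, was 840 to 1340 when a library was left out and 893 with 1 surrogate variable. The count of other protease inhibitors, 2, was 1 with upper quartile scaling, 1 with library totals alone and 0 with 1 surrogate variable (edgeR; 3 of 18 at an unadjusted p under 0.05, with 2 called by DESeq2 and 2 by limma-voom in the plain design), and 0 to 2 when a library was left out. The count of receptors and partners, 3, was 1 to 3 when a library was left out. Besides Serpinb6a, log2 changes that changed sign were those of Gzmf, Serpinc1 and Serpini1, none of them called. With a library left out Gzmf ran from -0.0245 to 0.899, Serpinc1 from -0.0430 to 0.0573 and Serpini1 from -0.0749 to 0.00634. With 1 surrogate variable Serpinc1 was at -0.0584 and Serpini1 at 0.0352. Of 30 called genes named from the lists, 21 kept their call under all 16. The cause of these differences was not tested. Depth limits Serpinb1a and Serpinb9b, with at most 14 counts in a library.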
